A study of Danio rerio with 9 samples.

Results

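Livers of zebrafish lacking focad were compared with wild-type livers over all genes that reached a mean of at least 0.5 FPKM (fragments per kilobase of gene, scaled to the library total) over the 3 focad null and 3 wild-type libraries together, which left 13283 of the 33716 gene IDs in the deposited table. The wild-type fish were of the AB laboratory line, labelled wildtype and aged 3.5 months. The null fish were maternal zygotic focad-/-, so that neither the mother nor the embryo supplied a functional copy, and their labels give neither an age nor a line. Because AB is named for the wild type only, genotype, line and age cannot be told apart in any difference below. Another group of 3 maternal zygotic pdia6-/- libraries, also aged 3.5 months, entered the fit to estimate the spread, and its values are printed beside some genes. Each group had 3 libraries from whole frozen liver. The labels do not say whether each was a separate fish, so p-values measure the spread between libraries, which may be partly technical.

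Focad encodes focadhesin, a large protein first described at focal adhesions. In human cells it binds the SKI complex, the cytoplasmic helicase machine of skic2, skic3 and skic8 that unwinds messenger RNA and feeds it to the RNA exosome for decay. Human loss of FOCAD causes a childhood liver disease. The liver itself is dominated by hepatocytes, which secrete plasma proteins such as clotting factors, complement and acute phase proteins, make bile acids, and detoxify foreign compounds.

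Depth ran from 46057623 to 54490384 reads per library. The libraries were liver by their leading transcripts: apoa2, apoa1b, apoc1, fabp10a and fibrinogen chains ranked highest in the mean of the 6, and all 34 hepatocyte markers matched in the table passed the expression minimum. The hepatocyte fatty acid binding protein fabp10a was measured at 20940, 28020 and 19840 FPKM in wild type, then 24630, 13160 and 12170 FPKM in focad null (adjusted p = 0.482). Among the highest transcripts the ranges of the groups overlapped for fabp10a and apoc1.

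The targeted transcript itself, focad (ENSDARG00000022020), was weakly expressed in every library. Wild-type replicates 1 to 3 had 1.15, 0.458 and 0.987 FPKM, from 169, 67 and 153 reads. The focad null replicates had 0.295, 0.478 and 0.265 FPKM, from 51, 70 and 41 reads. The log2 change was -0.48 ± 0.18 (SE), with an adjusted p of 0.273 in the fit over all genes and p = 0.2 in a two-sided exact permutation test, which cannot go below 0.1 with 3 libraries against 3. The library labelled focad null replicate 2 lay above wild-type replicate 2, so its focad level did not separate it from wild type, and the files do not show where in the gene the null allele lies. It is named below as the library labelled focad null replicate 2 where a result turns on it.

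That library also stood apart from the other focad null libraries. In a principal component analysis of the 6 libraries the first component held 54.1% of the variance, with wild type between -42.5 and -38.8, focad null replicate 3 at -9.34, replicate 1 at 29.9 and the library labelled replicate 2 at 99.98. It exceeded both other focad null libraries by more than 2 log2 units in 393 genes and fell short of both by that much in 52 genes. Focad null replicate 3 lay that far below both others in 157 genes. The median within-group SD was 0.26 log2 units in wild type and 0.33 in focad null.

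Transcripts of neighbouring organs varied between the libraries too. Sums here are over all matched IDs of a list, tested or not. The summed level of 48 intestine marker IDs was 1941, 1494 and 1249 FPKM in wild type. In focad null it was 4566, 23030 and 2448 FPKM, highest in the library labelled replicate 2. Exocrine pancreas markers summed to 605, 1574 and 814 FPKM in wild type and to 6427, 1220 and 3111 FPKM in focad null, so that here replicates 1 and 3 were the high ones and the groups overlapped. Endocrine pancreas markers summed to 4.53, 5.16 and 0.958 FPKM in wild type and to 272, 184 and 13.1 FPKM in focad null. Hepatocyte markers summed to between 218500 and 224800 FPKM in wild type, and to 213000, 165600 and 221300 FPKM in focad null. By limma none of the 7 endocrine genes passed adjustment, though all 7 had an unadjusted p below 0.05 and voom on recovered reads called none; 2 of the 27 exocrine genes passed. The pdia6 null libraries had 2503 to 4778 FPKM of the intestine sum. Whether these transcripts came with the dissected tissue, and their part in the results below, was not tested.

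**Figure D1:**
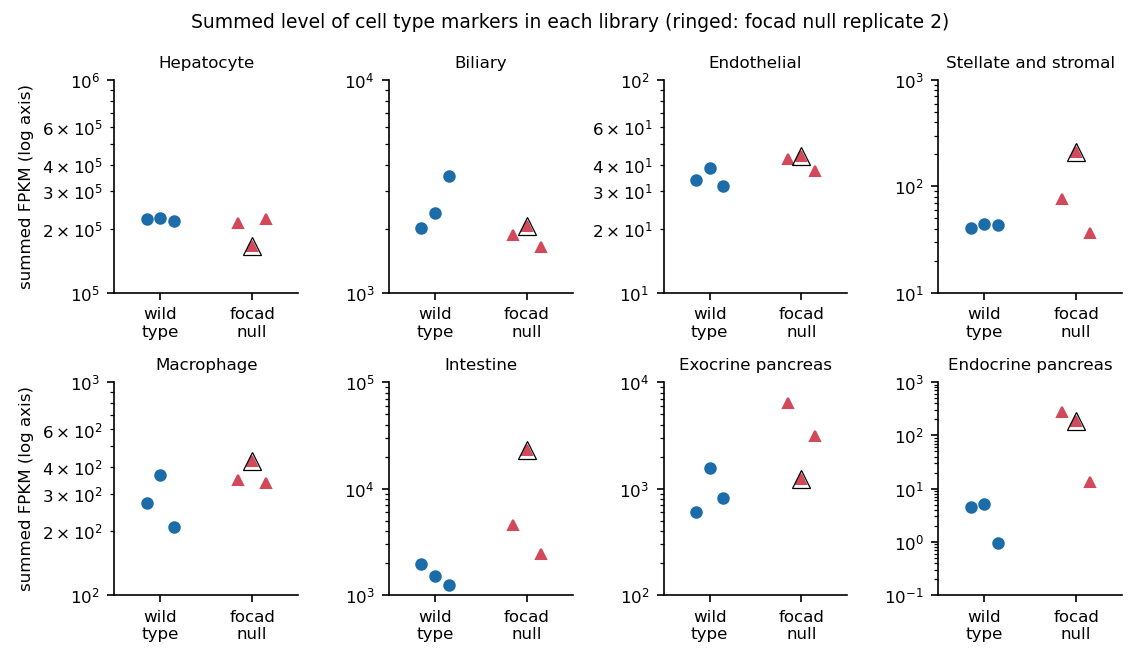
Summed FPKM, on log axes, of 8 marker lists in the 3 wild-type libraries (circles) and the 3 focad null libraries (triangles), with the library labelled focad null replicate 2 ringed. Intestine markers reach 23030 FPKM in that library against at most 1941 FPKM in wild type, while the hepatocyte sum stays between 165600 and 224800 FPKM.

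Of the 13283 genes, 228 passed the adjusted p threshold of 0.05, which is 1.72%; 92 of them were higher (0.693%) and 136 lower (1.02%) in focad null. None of the 228 overlapped between the 3 libraries of each group. Over all genes, 20.3% did not overlap, 10.7% higher and 9.56% lower, 15.1% had an unadjusted p below 0.05, and the median log2 change was 0.02. The wild-type mean was below 1 FPKM for 62 of the 92 genes called higher, and the focad null mean was below 1 FPKM for 90 of the 136 called lower. For 12 of the genes called higher no read was seen in any wild-type library, and for 15 of those called lower none in any focad null library. The pdia6 null range overlapped focad null only in 63 of the 136 called lower and 22 of the 92 called higher. It overlapped wild type only in 25 and 44 of them, and neither group in 48 and 26. Over all genes tested it overlapped focad null only in 1590, wild type only in 2072, neither in 1153 and both in 8468. Unlike the called genes, most of all genes had overlapping wild-type and focad null libraries, so these counts are no like baseline for the calls. When the library labelled focad null replicate 2 was left out, 217 genes passed (1.63%), 159 of them among the 228. Leaving out focad null replicate 1 left 90 calls, wild-type replicate 2 left 135 and wild-type replicate 3 left 129, whereas without focad null replicate 3 there were 539, of which 410 were higher. Exactly 80 of the 228 genes, 32 higher and 48 lower, passed in all 9 fits that each left out 1 library, and these lead the account that follows. The voom test on recovered reads also called 96 of the 228, and 62 of these 80. Of the 67 called genes covered by the rule for naming, 36 did not pass by voom, among them fabp2 (adjusted p = 0.0861), hp (0.0728), pros1 (0.0781) and cfhl2 (0.243).

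The largest decrease was in antigen presentation, where 4 of 24 tested genes (16.7%) of the MHC class I and II list fell and none rose. Over all genes 1.72% were called, 0.693% higher and 1.02% lower, and list counts here and below stand against those shares. Where a list has 1 call, the count describes that gene and not the list. The class I gene mhc1uba, whose product presents peptides to cytotoxic T cells, had 310, 807 and 364 FPKM in wild type and 0.0776, 0.0734 and 0.0174 FPKM in focad null. Every focad null library was therefore near the detection limit, with 10 reads in all against 81985 in wild type, an 8804-fold difference in mean FPKM (log2 change -8.81 ± 0.36, adjusted p = 1.14e-05). Its neighbour mhc1uca, another class I heavy chain gene, had 10.9, 12.3 and 7.29 FPKM in wild type and 0, 0.0174 and 0 FPKM in focad null. That is 1782 reads against 1 read, a ratio of 1890 with a 95% counting interval from 338 to 74500 (exact binomial, counting error only; adjusted p = 0.000117).

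Close to both lies tapbp.1, which encodes tapasin, the chaperone that loads peptides onto class I molecules. It fell from 8.12, 12.4 and 5.10 FPKM to 1.78, 1.67 and 0.658 FPKM (log2 change -2.05 ± 0.35, adjusted p = 0.0258). The class I gene mhc1zja fell from 1.05, 1.14 and 1.44 FPKM to 0.172, 0.203 and 0.0959 FPKM (adjusted p = 0.0248). Of these 4, mhc1uba and mhc1uca passed in all 9 fits that left out 1 library. The calls of tapbp.1 ended without focad null replicate 1, wild-type replicate 1 or wild-type replicate 2, with an adjusted p of up to 0.0867, and those of mhc1zja without focad null replicate 1 or wild-type replicate 2 or 3, with up to 0.122. The median log2 change of the whole list was 0.11, since 15 of its 24 tested genes had a positive value; it was -0.14 without the library labelled focad null replicate 2. In the pdia6 null libraries mhc1uba was likewise low, at 0.0174, 0.0328 and 0.104 FPKM, and mhc1uca was at 0. So were tapbp.1, at 1.33, 0.815 and 0.959 FPKM, and mhc1zja, at 0.116, 0.290 and 0.327 FPKM. As background, haplotypes of the core MHC of zebrafish carry different class I genes, and reads were counted against 1 reference assembly, so a different haplotype and a lower transcript level cannot be told apart.

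Other gene IDs went from a clear wild-type level to near 0 in all 3 focad null libraries. The gene urahb encodes a hydrolase of the pathway that breaks down uric acid, and held 29.7, 28.7 and 29.7 FPKM in wild type against 0, 0.0160 and 0 FPKM in focad null. Only 1 read was found in the focad null libraries against 5636 in wild type, a ratio of 5960 with a counting interval from 1070 to 236000 (log2 change -4.99 ± 0.14, adjusted p = 8.29e-07). The 3 wild-type values lay close together and the groups far apart. In pdia6 null, urahb stood at 0.0152, 0 and 0 FPKM. The gene pcnp, a nuclear protein with PEST sequences, whose symbol is carried by 2 gene IDs, had 4.53, 12.8 and 6.45 FPKM in wild type and 0, 0.0455 and 0 FPKM in focad null (ENSDARG00000116774, adjusted p = 0.00315). This ID was at 0 FPKM in each pdia6 null library. The other ID of the symbol is not described here.

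The receptor gene igflr1, whose product binds an IGF-like ligand in mammals, fell from 27.5, 28.9 and 11.61 FPKM to 0.0882, 0.0870 and 0.0329 FPKM, a 327-fold difference (adjusted p = 0.000533). Here the pdia6 null libraries were at 42.0, 40.7 and 37.2 FPKM. The ribonuclease gene rnasek fell from 14.4, 11.7 and 15.8 FPKM to 0.506, 0.299 and 0.479 FPKM (ENSDARG00000104458, 1 of 2 IDs with this symbol, adjusted p = 1.54e-05). The ubiquitin-like modifier partner nub1, which steers NEDD8 conjugates to the proteasome in human cells, fell from 5.68, 5.40 and 6.09 FPKM to 0.455, 0.142 and 0.225 FPKM, a 20.9-fold difference (adjusted p = 0.000144). The T cell costimulator-like gene cd28l fell from 6.65, 12.8 and 10.5 FPKM to 0.432, 0.0902 and 0.0853 FPKM (adjusted p = 0.00496). All of igflr1, rnasek, nub1, cd28l, urahb and pcnp passed in all 9 fits that left out 1 library. By voom the calls of cd28l (adjusted p = 0.1002) and pcnp (0.0775) ended, while the other four passed. Both rnasek and nub1 were also low in pdia6 null, at 0.414 to 0.535 and 0.195 to 0.326 FPKM. The long non-coding RNA lnc.85 had 6.36, 23.9 and 13.1 FPKM in wild type and no read in focad null, which makes it at least 505-fold lower, with a floor of 3 reads for the group, but its adjusted p was 0.0977 by voom. No read of lnc.85 was seen in pdia6 null either.

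Mirroring these, a few genes were near 0 in wild type and clearly present in focad null. Among globins and erythroid genes, 2 of 16 tested were called higher and none lower, although the median log2 change of the list was -0.48. Without overlap 7 (43.8%) were lower and 3 (18.8%) higher, against 9.56% and 10.7% of all genes. At an unadjusted limma p below 0.05, 5 were lower and 3 higher. The globin hbe1 (ENSDARG00000097238, a symbol carried by 7 gene IDs) had 0, 0 and 0.133 FPKM in wild type and 32.4, 26 and 29.5 FPKM in focad null, a 661-fold difference that rests on 4 wild-type reads (log2 change 4.82 ± 0.15, adjusted p = 1.19e-06). It was between 0.0333 and 0.0944 FPKM in pdia6 null, so it was high only in the 3 focad null libraries of the 9. The adult globin gene hbaa2 rose from 0.0383, 0.231 and 0.0727 FPKM to 1.95, 0.885 and 1.38 FPKM (adjusted p = 0.0344); its call held only in the fits lacking focad null replicate 3 or the library labelled focad null replicate 2, and adjusted p reached 0.164 in the other fits. Globin genes are near-identical copies, and reads may be divided among them differently by the aligner.

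The innate sensor genes tlr18, a fish Toll-like receptor, and nlrp3l2, named for its likeness to the inflammasome sensor NLRP3, also rose. Values of tlr18 were 0.121, 0.101 and 0.490 FPKM in wild type and 9.58, 5.68 and 6.02 FPKM in focad null, a 29.9-fold difference (log2 change 2.65 ± 0.21, adjusted p = 0.000797). It stayed between 0.0379 and 0.201 FPKM in pdia6 null. No read of nlrp3l2 was seen in wild type, against 4.49, 9.38 and 3.83 FPKM in focad null, which is at least 1236-fold higher by the floor of 3 reads (adjusted p = 0.00749, and 0.0642 by voom). Unlike tlr18, it was also present in pdia6 null, at 4.325, 2.84 and 1.995 FPKM. In the same list of inflammasome, Toll-like receptor and NF-kB genes, caspa fell; it encodes the zebrafish counterpart of caspase-1. Its level went from 9.61, 16.1 and 10.1 FPKM to 0.535, 3.1 and 0.958 FPKM (log2 change -2.52 ± 0.40, adjusted p = 0.0209), and the call ended without focad null replicate 1 or wild-type replicate 2 or 3, where adjusted p reached 0.0844. Levels of caspa in pdia6 null were lower still, at 0.2, 0.0252 and 0.12 FPKM. With 2 of 29 tested genes higher and 1 lower, the list had a median log2 change of 0.15. From the chemokine and interleukin list 1 of 35 tested genes rose, the neutrophil attractant cxcl8b.3, from 1.08, 0.866 and 0.597 FPKM to 11, 4.32 and 5.14 FPKM (adjusted p = 0.0159, up to 0.067 without wild-type replicate 2 or 3).

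Several enzymes were also among the increases called in all 9 fits. The detoxifying glutathione transferase gstt1b rose from 9.65, 8.26 and 4.52 FPKM to 45.1, 51.3 and 64.4 FPKM, 7.17-fold (log2 change 2.63 ± 0.29, adjusted p = 0.00337). The cytosolic NADP-linked isocitrate dehydrogenase idh1, a source of NADPH, rose from 27.4, 18.2 and 21.2 FPKM to 85.4, 142 and 132 FPKM, 5.38-fold (adjusted p = 0.00686). The oxidoreductase gene htatip2 rose from 4.87, 3.46 and 3.04 FPKM to 28.0, 52.0 and 28.5 FPKM, 9.54-fold (adjusted p = 0.00401). Levels of htatip2 in pdia6 null, at 2.31 to 3.63 FPKM, were those of wild type. Those of gstt1b, at 21.2 to 27.3 FPKM, and of idh1, at 37.1 to 57.5 FPKM, lay between the wild-type and focad null ranges.

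The tight junction gene oclna, an occludin, rose from 0.574, 0.359 and 1.00 FPKM to 10.6, 13.8 and 7.91 FPKM (adjusted p = 0.0038), and rab3c, a small GTPase of regulated secretion, from 0.593, 0.548 and 0.828 FPKM to 13.9, 8.70 and 13.8 FPKM (adjusted p = 0.00234). Both were also high in pdia6 null, at 7.69 to 13.3 and 4.55 to 10.8 FPKM.

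**Figure D2:**
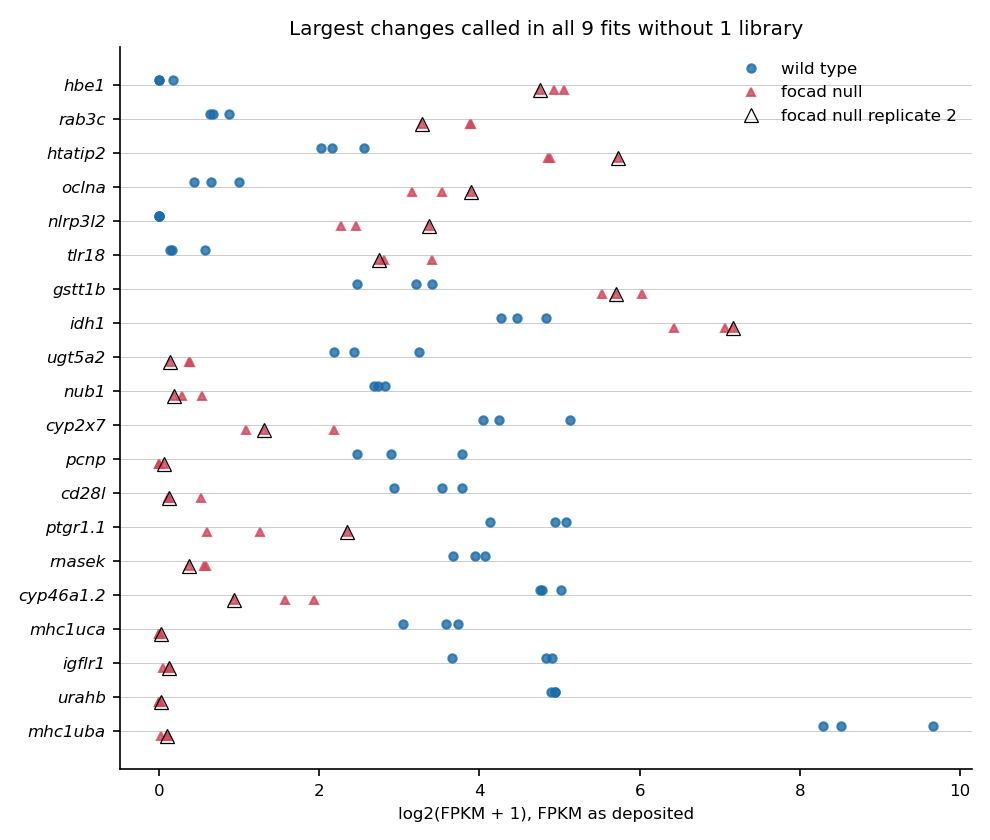
Log2 of deposited FPKM plus 1 in each wild-type (circles) and focad null (triangles) library for the genes with symbols among the 25 largest increases and 25 largest decreases that passed in all 9 fits without 1 library. The groups are apart in every row because only genes without overlap were chosen; mhc1uba has the widest gap.

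Stress regulators rose in part. From the integrated stress response list, in which translation is slowed and the transcription factor Atf4 acts, 2 of 40 tested genes rose, none fell and the median log2 change was 0.28. Focad null replicate 3 decided the sign of that median, which was -0.01 without it. The chromatin protein gene nupr1b, induced by many stresses, had 143, 78.0 and 72.9 FPKM in wild type and 542, 415 and 593 FPKM in focad null, 5.27-fold higher (log2 change 2.33 ± 0.34, adjusted p = 0.0119). Its call ended without focad null replicate 1 or wild-type replicate 2 or 3, with adjusted p up to 0.065. The mTORC1 inhibitor ddit4 rose from 8.94, 1.33 and 8.06 FPKM to 85.5, 63.6 and 45.4 FPKM (adjusted p = 0.0400), and lost its call in 6 of the 9 fits, all but those without focad null replicate 3 or pdia6 null replicate 2 or 3.

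Immediate early genes, which respond within minutes to signals or to handling of tissue, gave 2 of 34 tested higher and a median of 0.34. The transcription factor gene fos rose from 0.914, 0.842 and 2.31 FPKM to 24.0, 25 and 6.65 FPKM (adjusted p = 0.0294), with focad null replicate 3 the lowest, and passed in only 1 of the 9 fits, the one without that library. The phosphatase gene dusp2 rose from 0.334, 0.188 and 1.60 FPKM to 17.5, 5.0 and 5.10 FPKM (adjusted p = 0.042), and passed only without focad null replicate 3 or wild-type replicate 3. None of 33 p53 targets passed in limma or by voom, with 11 higher and 1 lower at an unadjusted p below 0.05; ccng1 stood at 447 ± 112 FPKM in wild type and 630 ± 71.5 FPKM in focad null (mean ± SD, n = 3 libraries; adjusted p = 0.527 by limma), and 12 of the 33, or 36.4%, did not overlap on the higher side, against 10.7% of all genes.

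Most tested members of the antioxidant and oxidative phosphorylation lists had a positive change, and 1 of each passed. Of 50 tested genes of glutathione and antioxidant defence, 40 had a positive change, but gstt1b alone passed. The median was 0.61, or 0.44 without the library labelled focad null replicate 2. Without overlap 19 (38%) were higher, against 10.7% of all genes. Summed over matched IDs, the level was 5354 to 6736 FPKM in wild type and 8819 to 8888 FPKM in focad null. In pdia6 null the sum was 6847, 7700 and 7332 FPKM, also above all wild-type libraries. The glutathione transferase gene gstp1.2, named after its values were seen, had 174, 163 and 107 FPKM in wild type and 358, 509 and 386 FPKM in focad null (log2 change 1.4, adjusted p = 0.0644). The haem-degrading enzyme gene hmox1, likewise chosen after the fact, had 4.50, 41.5 and 10.6 FPKM in wild type and 197, 66.4 and 123 FPKM in focad null (adjusted p = 0.14). All 3 focad null libraries exceeded all wild-type libraries in both.

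Among 82 nuclear genes of oxidative phosphorylation, the electron transport chain and ATP synthase, 74 had a positive change, with a median log2 change of 0.41 and quartiles of 0.25 and 0.57. Here 45, or 54.9%, were higher without overlap, against 10.7% of all genes, and 1 was lower, against 9.56% of all genes. Summed over matched IDs, the level was 7463 to 8140 FPKM in wild type and 10600 to 12640 FPKM in focad null. In pdia6 null the sum was 8343, 10790 and 8880 FPKM, also above all wild-type libraries. Only atp5mc1, subunit c of ATP synthase, passed, at 126, 72.4 and 61.3 FPKM in wild type and 239, 322 and 279 FPKM in focad null (log2 change 1.64 ± 0.32, adjusted p = 0.0484). That call held in 1 of the 9 fits, the one without wild-type replicate 1, and adjusted p reached 0.165 in the others. The cytochrome oxidase subunit gene cox5a, shown after its values were seen, had 84.5, 58.5 and 60.13 FPKM in wild type and 114, 165 and 131 FPKM in focad null (adjusted p = 0.19). The list's median was 0.26 without the library labelled focad null replicate 2, and lay between 0.26 and 0.52 over the 20 other settings tried.

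The 13 transcripts of the mitochondrial genome all had a positive change, and none passed the test (3 had an unadjusted limma p below 0.05, none passed by voom) or separated the groups. Their median was 0.56 with all libraries and 0.15 when the library labelled focad null replicate 2 was left out, which held 27470 FPKM of mt-co2 against 14930 and 8220 FPKM in replicates 1 and 3. In wild type mt-co2 stood at 10160, 11470 and 7470 FPKM. Interferon genes (0 of 43 called) and cholesterol synthesis genes (0 of 29 called) followed the same library, with 2 and 0 genes at an unadjusted p below 0.05 and none by voom: their medians of 0.42 and 0.30 became 0.09 and -0.05 without it. The interferon gene of highest mean over the 6 libraries, psme1, a proteasome activator subunit, had 32.6 ± 6.72 FPKM in wild type and 77.6 ± 62.7 FPKM in focad null.

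**Figure D3:**
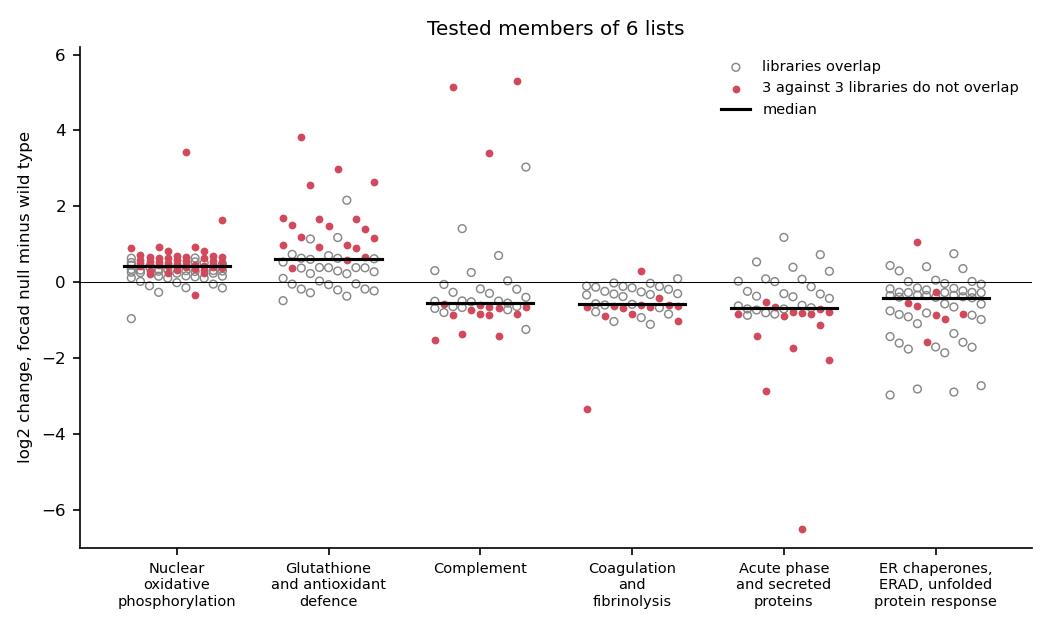
Log2 change of each tested member of 6 lists, with filled points where the 3 focad null and 3 wild-type libraries do not overlap and a bar at the median. Oxidative phosphorylation and antioxidant genes lie mostly above 0, with medians of 0.41 and 0.61, and complement, coagulation, acute phase and endoplasmic reticulum genes mostly below, with medians from -0.68 to -0.41.

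Most tested members of the acute phase, complement and coagulation lists had a negative change, with few single calls. In the acute phase and secreted protein list, 1 of 41 tested genes fell and none rose, 16 (39.0%) were lower without overlap against 9.56% of all genes, and the median was -0.68. The gene that fell was hp, haptoglobin, which binds free haemoglobin in plasma, at 1513, 552 and 509 FPKM in wild type and 2.23, 13.5 and 13.3 FPKM in focad null, an 88.6-fold difference (log2 change -6.52 ± 1.26, adjusted p = 0.0461). Its call held only without focad null replicate 3 or pdia6 null replicate 2, and adjusted p reached 0.178 in the other 7 fits. The pdia6 null libraries had 487, 16.3 and 479 FPKM of hp, so 1 of them was near the focad null level.

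The thyroid hormone carrier ttr, given after its values were seen, had 330, 269 and 280 FPKM in wild type and 87.2, 134 and 136 FPKM in focad null (log2 change -1.42 ± 0.31, adjusted p = 0.0725). The pentraxin crp5, given for the same reason, had 436, 105 and 468 FPKM in wild type and 0.114, 0.0270 and 0.0511 FPKM in focad null, yet the adjusted p was 0.085, and the pdia6 null libraries ranged from 0.677 to 528 FPKM. This wide range within the pdia6 null group enters the shared spread of the fit. Of the 41 tested genes of the list, 32 had a negative and 9 a positive change. Among the most abundant transcripts hpxa, also given after its values were seen, went the other way. It had 2626, 7107 and 2344 FPKM in wild type and 11970, 4079 and 12990 FPKM in focad null (log2 change 1.18 ± 0.67, adjusted p = 0.450 by limma).

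Complement, the cascade of plasma proteases and opsonins, had 2 of 40 tested genes higher, 1 lower, and a median of -0.56. The central component gene c3a.3 fell from 656, 512 and 509 FPKM to 261, 168 and 257 FPKM, 2.45-fold (log2 change -1.41 ± 0.25, adjusted p = 0.033). That call held in 3 of the 9 fits, those without focad null replicate 3 or pdia6 null replicate 1 or 2, and adjusted p reached 0.112. Against that direction, the serine protease c1s.2 rose from 1.17, 0.602 and 2.33 FPKM to 146, 47.3 and 82.0 FPKM, 67.0-fold (log2 change 5.15 ± 0.72, adjusted p = 0.0105), and adjusted p was 0.0563 without focad null replicate 1. A factor H-like gene, cfhl2, of the family that restrains complement, rose from 0, 0.0183 and 1.18 FPKM to 78.3, 39.07 and 47.2 FPKM (log2 change 5.32 ± 0.84, adjusted p = 0.0199). Its call ended without focad null replicate 1 or wild-type replicate 1 or 2, with adjusted p up to 0.0982. In pdia6 null c3a.3 was also low, at 305.5, 198 and 277 FPKM. There c1s.2 was also high, at 167, 23.5 and 142 FPKM, whereas cfhl2 was at 0.945, 21.8 and 1.55 FPKM. Both c1s.2 and cfhl2 belong to families of close paralogues, and 31 of the 40 list members had a negative change.

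Coagulation and fibrinolysis genes had a median of -0.58, with 36 of 38 tested members negative. Without overlap 12 (31.6%) were lower, against 9.56% of all genes, and 1 gene of the list passed. That was pros1, protein S, a cofactor that dampens clotting, which fell from 154, 172 and 433 FPKM to 15, 16.5 and 49.2 FPKM, 9.42-fold (log2 change -3.34 ± 0.64, adjusted p = 0.0446). It passed in 3 of the 9 fits, without focad null replicate 3 or pdia6 null replicate 1 or 3, and adjusted p reached 0.178. Fibrinogen alpha chain fga, among the most abundant liver transcripts and named for that, had 18160, 12990 and 21800 FPKM in wild type and 9383, 10790 and 11120 FPKM in focad null (adjusted p = 0.346). Plasminogen, plg, had 3520, 2612 and 3443 FPKM in wild type and 1999, 1352 and 2279 FPKM in focad null (adjusted p = 0.273); it too was chosen after its values were seen. In both genes the focad null libraries lay below all wild-type libraries. The groups overlapped in the other fibrinogen chains: fgb, of higher mean level than fga over the 6 libraries, had 19760, 12770 and 13660 FPKM in wild type and 12360, 13170 and 14040 FPKM in focad null (log2 change -0.30 ± 0.41, adjusted p = 0.787), and fgg had a log2 change of -0.24 ± 0.39.

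The 34 hepatocyte markers shared some of these genes and had a median of -0.52, with 1 called, again hp. In contrast, the 34 hepatocyte transcription factors had a median of 0.00 and none passed (2 at an unadjusted limma p below 0.05, none by voom); cebpd was at 174 ± 12.6 FPKM in wild type and 189 ± 20.8 FPKM in focad null. Of the 34 markers, 27 had a negative and 7 a positive change. Their summed level was 213000, 165600 and 221300 FPKM in focad null, against 218500 to 224800 FPKM in wild type. For the genes that were lower, fewer hepatocytes in a sample and less of these transcripts per hepatocyte cannot be told apart in whole tissue. Without the library labelled focad null replicate 2 the medians were -0.47 for acute phase genes, -0.51 for complement, -0.40 for coagulation and -0.43 for hepatocyte markers, and they were negative under each of the other settings tried.

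Endoplasmic reticulum chaperones, which fold secreted proteins, had no call among 58 tested genes in limma or by voom (4 at an unadjusted p below 0.05), a median of -0.41 and 49 negative changes. The disulfide isomerase pdia3 was at 497 ± 168 FPKM in wild type and 431 ± 81.0 FPKM in focad null, and the translocon subunit ssr2 at 322 ± 96.3 and 280 ± 13.8 FPKM. Wild-type libraries differed among themselves in this list. Summed over its 62 matched IDs, the level was 7022, 2240 and 3143 FPKM, against 2535, 2758 and 2407 FPKM in focad null. The focad null sums therefore lay inside the wild-type range. In pdia6 null the sums were 19220, 3066 and 3975 FPKM, and this wide range also enters the shared spread of the fit.

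**Figure D4:**
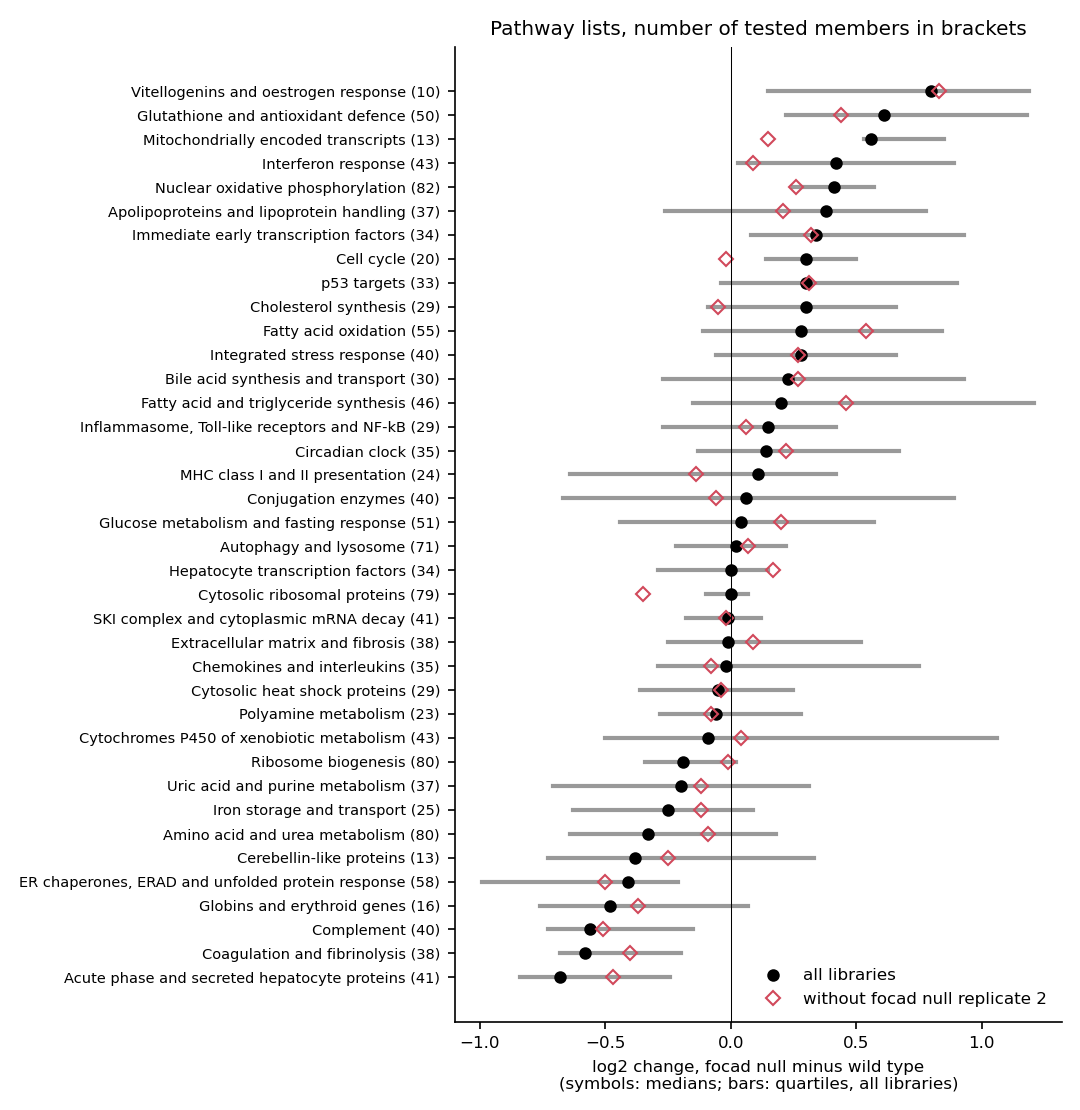
Median log2 change of the tested members of each pathway list with all libraries (filled) and with focad null replicate 2 left out (open diamonds), with bars from the lower to the upper quartile. Acute phase, coagulation and complement lists lie lowest, at -0.68, -0.58 and -0.56, and the mitochondrial transcript and cytosolic ribosomal protein lists move with the choice of libraries, from 0.56 to 0.15 and from 0.00 to -0.35.

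The genes nearest to focad's known partners showed no call. Of the 41 genes tested in the SKI and mRNA decay list, none passed in limma or by voom, 1 had an unadjusted p below 0.05 (15.1% of all genes did), and the median was -0.01. That 1 gene was exosc3, an exosome core subunit, at 1.01, 1.57 and 1.64 FPKM in wild type and 3.41, 3.14 and 5.0 FPKM in focad null (adjusted p = 0.0942). The helicase gene skic2 was at 1.81, 0.957 and 1.23 FPKM in wild type and 1.51, 1.61 and 1.38 FPKM in focad null. The scaffold gene skic3 was at 1.2, 0.912 and 0.995 FPKM and at 1.03, 0.447 and 0.651 FPKM (adjusted p = 0.395), and the WD-repeat subunit skic8 at 8.02, 4.06 and 4.97 FPKM and at 5.56, 4.34 and 5.87 FPKM. The ranges overlapped in each of these. Of the list, exosc1 and patl1 had the highest levels, and the exosome subunit exosc1 was at 40.2, 51.0 and 32.2 FPKM against 35.6, 5.75 and 42.6 FPKM, low in the library labelled focad null replicate 2 alone.

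Single calls among enzymes of lipid, bile acid and foreign compound metabolism went in both directions. In the bile acid list, 2 of 30 tested genes rose and 1 fell. The sterol 12-hydroxylase gene cyp8b1 (ENSDARG00000097559, 1 of 3 IDs), which sets the ratio of bile acid types, rose from 0.0783, 0.135 and 0.106 FPKM to 2.70, 1.69 and 2.19 FPKM, 20.6-fold (adjusted p = 0.00303), and passed in all 9 fits. The cholesterol 24-hydroxylase paralogues, which lie close together, went opposite ways. While cyp46a1.2 fell from 26.1, 26.4 and 31.5 FPKM to 2.83, 0.914 and 1.96 FPKM (log2 change -3.48 ± 0.40, adjusted p = 0.00445, passing in all 9 fits), cyp46a1.3 rose from 5.98, 4.03 and 2.78 FPKM to 39.0, 10.3 and 45.2 FPKM (adjusted p = 0.047). The rise of cyp46a1.3 passed in only 1 of the 9 fits, the one without the library labelled focad null replicate 2, which was its lowest focad null library; adjusted p was 0.00310 there and up to 0.184 elsewhere. Reads of such close copies may be shared between them. The bile salt export pump abcb11, given after its values were seen, had 45.2, 57.0 and 56.4 FPKM in wild type and 21.6, 5.87 and 8.98 FPKM in focad null (adjusted p = 0.0583).

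Of 55 fatty acid oxidation genes, 40 had a positive change, with a median of 0.28, or 0.54 without the library labelled focad null replicate 2. Without overlap 14 (25.5%) were higher and 3 (5.45%) lower, against 10.7% and 9.56% of all genes. At an unadjusted limma p below 0.05, 15 were higher and 4 lower. By adjusted p 1 rose and 1 fell, and both carry the symbol acadsb, the short/branched-chain acyl-CoA dehydrogenase. The ID ENSDARG00000098174 rose from 0.0573, 0.0288 and 0.0204 FPKM to 1.33, 1.74 and 1.41 FPKM (adjusted p = 0.0129), and lost its call without focad null replicate 1 or wild-type replicate 2 or 3, where adjusted p reached 0.0544. That ID was also present in pdia6 null, at 1.41, 1.66 and 2.255 FPKM. The ID ENSDARG00000076780 fell from 11, 15.4 and 11.4 FPKM to 6.63, 3.26 and 5.62 FPKM (adjusted p = 0.0422, passing only in the fit without focad null replicate 3). It was the only symbol with calls in both directions. No gene of the 46 of fatty acid and triglyceride synthesis passed in limma or by voom, with 9 at an unadjusted p below 0.05. Its most abundant member thrsp, a regulator of lipogenesis, had 44.3, 613 and 94.6 FPKM in wild type and 3181, 819 and 2655 FPKM in focad null (log2 change 3.68 ± 0.97, adjusted p = 0.129), so the groups did not overlap but wild type spread over more than 10-fold. The apolipoprotein gene apoa2, highest of all genes and of a list with no call among 37, stood at 38790 ± 7275 and 56490 ± 9047 FPKM.

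For conjugation enzymes, which attach sugar or sulfate to compounds for excretion, 1 of 40 tested genes rose and 2 fell. The glucuronosyltransferase ugt5a2 fell from 8.50, 3.56 and 4.38 FPKM to 0.296, 0.101 and 0.305 FPKM, 23.4-fold (adjusted p = 0.00268, passing in all 9 fits). Its relative ugt5b2 fell from 21.7, 25.5 and 23.4 FPKM to 10.4, 5.62 and 7.65 FPKM (adjusted p = 0.0132, up to 0.0538 without wild-type replicate 2 or 3). Both were also low in pdia6 null, at 0.254, 0.148 and 0.454 FPKM for ugt5a2 and 12.9, 8.64 and 9.47 FPKM for ugt5b2. The sulfotransferase sult1st1 rose from 1.84, 0.498 and 0.991 FPKM to 10.6, 3.39 and 11.4 FPKM (adjusted p = 0.0404), a call that held only without the library labelled focad null replicate 2. Among 43 cytochrome P450 genes of xenobiotic metabolism 1 fell: cyp2x7 went from 33.9, 15.5 and 18 FPKM to 3.54, 1.48 and 1.13 FPKM, 11-fold (adjusted p = 0.00549, passing in all 9 fits). In pdia6 null cyp2x7 was at 18.1 to 33.29 FPKM, the range of wild type.

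The oxidoreductase ptgr1.1, which inactivates prostaglandins and leukotrienes, fell from 32.9, 16.6 and 29.7 FPKM to 1.4, 4.09 and 0.512 FPKM, 13.2-fold (adjusted p = 0.00749, passing in all 9 fits). In pdia6 null it was also low, between 0.849 and 1.07 FPKM. The lactate dehydrogenase gene ldhb fell from 94.5, 124 and 369 FPKM to 17.5, 27.5 and 41.4 FPKM (adjusted p = 0.0484), but passed only without focad null replicate 3 or wild-type replicate 1. Besides urahb, ada2 of the purine list, an extracellular adenosine deaminase, fell from 5.68, 4.68 and 6.39 FPKM to 2.5, 2.25 and 3.39 FPKM (adjusted p = 0.047, passing only without focad null replicate 3), so that 2 of 37 purine genes were lower and none higher.

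Among the 10 called genes of highest level were further secreted and storage proteins. The gene c20h6orf58 (ENSDARG00000095751, 1 of 2 IDs) encodes a secreted liver protein known from zebrafish liver development, and fell from 978, 3062 and 2232 FPKM to 475, 257 and 302 FPKM (log2 change -2.60 ± 0.51, adjusted p = 0.047, passing only without wild-type replicate 1). Its level was also low in pdia6 null, at 164, 356 and 297 FPKM. The other ID of this symbol had 3125 ± 915 FPKM in wild type and 2427 ± 1058 FPKM in focad null and did not pass. The cerebellin-like secreted protein gene cbln11 fell from 490, 73.2 and 370 FPKM to 15.1, 1.3 and 4.12 FPKM, 45.4-fold (log2 change -5.49 ± 0.85, adjusted p = 0.0181), and lost its call without wild-type replicate 1 or 3, with adjusted p up to 0.0719. It was the 1 called gene of 13 in the cerebellin list. The pdia6 null values of cbln11, 287.3, 151.5 and 484.5 FPKM, overlapped wild type only. The ferritin-like iron store gene fthl27 rose from 74.2, 75.7 and 66.9 FPKM to 257, 424 and 590 FPKM, 5.87-fold (adjusted p = 0.0400), with a call that held only without pdia6 null replicate 3, and with hp it made 1 higher and 1 lower of 25 iron genes. All pdia6 null libraries also exceeded wild type in fthl27, at 197, 201 and 481 FPKM.

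Other named genes among the 25 largest changes in each direction passed in fewer fits. The phosphatase subunit ppp2r2b rose from 1.12, 0.0160 and 0.228 FPKM to 8.54, 3.29 and 10.3 FPKM (adjusted p = 0.0195), and lost its call without focad null replicate 1 or wild-type replicate 2 or 3, with adjusted p up to 0.0967. The actin-binding calponin cnn2 rose from 13.1, 5.36 and 4.44 FPKM to 58.6, 28.4 and 29.6 FPKM (adjusted p = 0.0461, passing in 2 of the 9 fits), and the splicing-associated thrap3 from 0.421, 0.179 and 0.223 FPKM to 3.90, 3.52 and 12 FPKM (adjusted p = 0.0358, passing in 4 of the 9). In each of these 3 genes focad null replicate 1 or 3 was the highest library. The zinc finger gene znf1179 fell from 17.7, 23.2 and 26 FPKM to 0.463, 0.456 and 0.475 FPKM (adjusted p = 0.0312, passing in 4 of the 9), and was at 0.476, 0.530 and 10.9 FPKM in pdia6 null. The potassium channel subunit kcng4b, close to hp in gene order, had 5.25, 9.75 and 3.35 FPKM in wild type and no read in focad null (adjusted p = 0.0378, passing in 3 of the 9), at least 485-fold lower by the same floor. The collagen prolyl hydroxylase p4ha3 fell from 15.2, 85.2 and 103 FPKM to 4.23, 0.797 and 2.99 FPKM (adjusted p = 0.0484, passing only without wild-type replicate 1). Wild-type replicate 1 was its lowest wild-type library. A 5S ribosomal RNA copy, 1 of 1947 IDs with its symbol, and 5 unannotated transcripts, 4 of which passed in all 9 fits, complete the sets; their reads cannot be assigned to a known single gene.

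The matrix list had 1 call. The membrane collagenase mmp14 (ENSDARG00000002235, 1 of 2 IDs) fell from 2.84, 1.61 and 2.95 FPKM to 0.690, 0.285 and 0.714 FPKM (adjusted p = 0.0223, up to 0.0859 without focad null replicate 1 or wild-type replicate 1 or 3), while the 38 matrix genes had a median of -0.01. Fibronectin, fn1, carried most of that list's summed level and was chosen for it: 1907, 1349 and 1722 FPKM in wild type against 943, 399 and 1013 FPKM in focad null (adjusted p = 0.0974). The collagen gene col1a1a, also chosen after the fact, was at 1.15, 1.09 and 0.524 FPKM and at 3.39, 3.78 and 1.35 FPKM (adjusted p = 0.225).

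In the list of vitellogenins and oestrogen response both calls were IDs of mfap4, a fibrinogen-domain protein known in zebrafish as a macrophage gene, and no vitellogenin passed. The first (ENSDARG00000088745, 1 of 8 IDs) rose from 0.961, 0.964 and 1.62 FPKM to 7.91, 9.10 and 9.94 FPKM (adjusted p = 0.00234, passing in all 9 fits), and the second (ENSDARG00000090783) from 1.04, 0.622 and 1.01 FPKM to 12.8, 9.71 and 5.20 FPKM (adjusted p = 0.0445, passing in 3 of the 9). Of 21 macrophage markers none passed in limma or by voom, 4 were lower at an unadjusted p below 0.05, and the median was 0.04. The egg yolk precursor vtg5, named after its values were seen, stayed between 0.228 and 8.35 FPKM in all 6 libraries.

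Increases in markers of other organs were uneven among focad null libraries. The intestinal fatty acid binding protein fabp2 rose from 2.63, 5.31 and 4.53 FPKM to 253, 3295 and 78.5 FPKM, a mean difference of 291-fold (log2 change 6.24 ± 1.23, adjusted p = 0.0485). Its level in the library labelled focad null replicate 2 was more than 10-fold that of either other. Of the fits that each left out 1 library, it held in those lacking that library (log2 change 4.65, adjusted p = 0.0160) or focad null replicate 3. It was the 1 call among 40 intestine markers, whose median was 2.11, or 1.24 without that library. Of the 40 markers, 25 (62.5%) were higher without overlap, against 10.7% of all genes. The chitinase chia.3, named after its values were seen, went the same way without passing, with 0.455, 0.304 and 5.96 FPKM in wild type and 582, 7608 and 33.6 FPKM in focad null (adjusted p = 0.0786).

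From the exocrine pancreas list, 2 of 27 genes rose. The Kazal-type protease inhibitor spink4 went from 6.54, 7.71 and 4.79 FPKM to 67.3, 47.9 and 19.7 FPKM (adjusted p = 0.0431, passing only without focad null replicate 3), and amy2al2, an amylase, from 0.752, 2.11 and 0.443 FPKM to 16.1, 5.11 and 8.64 FPKM (adjusted p = 0.0464, passing in 3 of the 9). The insulin gene ins was at 1.86, 2.29 and 0.151 FPKM in wild type and 212, 134 and 8.10 FPKM in focad null (adjusted p = 0.0814). Endothelial markers, with 16 tested, gave no call in limma or by voom, 3 at an unadjusted p below 0.05 and a median of -0.07, and kdrl was at 9.10 ± 0.997 and 8.50 ± 2.44 FPKM. Of 8 lymphocyte markers il2rb, an interleukin-2 receptor chain, fell from 1.29, 1.02 and 1.18 FPKM to 0.425, 0.0952 and 0.399 FPKM (adjusted p = 0.0449, passing only without focad null replicate 3).

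Over all lists 1621 genes were tested, of which 24 rose and 19 fell. In the pathway lists 2.62% of the genes tested were called, against 1.72% of all genes. The lists were chosen with earlier results of these data known, so the difference between these shares is no test of them. No call came from the lists of apolipoproteins, amino acid metabolism, cytosolic ribosomal proteins, ribosome biogenesis, heat shock proteins, circadian clock, cell cycle or polyamines, whose medians lay between -0.33 and 0.38; voom called none of them either, and at an unadjusted p below 0.05 they held from 0 (ribosomal proteins) to 15 genes (amino acid metabolism). Ribosomal protein rplp0 was at 4398 ± 478 FPKM in wild type and 4390 ± 1171 FPKM in focad null. For the 79 ribosomal protein genes the median of 0.00 became -0.35 without the library labelled focad null replicate 2.

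Some called genes lie close to each other. On the RefSeq assembly GRCz12tu, 9845 of the 13283 tested genes could be placed, and 118 of these were called. Of the 118, 19 formed 9 runs in which called genes followed within 3 placed genes of each other. Tested genes that were not placed may lie between them. How many runs as many randomly drawn genes would form was not tested. The longest was the run of tapbp.1, mhc1uca and mhc1uba described above, all lower. Others paired urahb with nudt7, hp with kcng4b, and sars2 with p4ha3, all lower, and crybg1b with ripply2, both higher. In 1 run, that of cyp46a1.2 and cyp46a1.3, the directions differed.

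In the authors' deposited table of the same contrast, 295 of 25700 genes with an adjusted p passed 0.05 (1.15%), 125 higher and 170 lower. Adjusted p in the authors' deposited table also passed 0.05 for 135 of the 228 genes called here, which is 59% of these calls and 45.8% of theirs. Named calls that did not pass there included fabp2 (authors' adjusted p = 0.727), c3a.3 (0.703), atp5mc1 (0.579), ldhb (0.570), ada2 (0.995) and idh1 (0.085). All 218 of the genes called in the authors' deposited table that were tested here had the same sign, and 77 lay under the expression minimum. That table was made from the same libraries, so the shared signs and calls are no independent check.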

How the data were processed

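RNA-seq of 9 liver libraries was used. Per the labels' protocols, total RNA (1 µg, RIN above 6.5) went into an Illumina library kit. TopHat2 (2.0.12), HTSeq (0.6.1), Bowtie2 (2.2.3) and the build danRer11 are listed in the submitters' processing notes. The authors deposited gene-level FPKM, scaled to gene length and library total. Whether counting used strand is not given in the sources used here, so a gene and an overlapping or antisense partner cannot be told apart. The authors' deposited table of the same contrast also holds p-values, log2 fold changes and scaled expression signal, of which the adjusted p and the sign were used.

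Reads were recovered from the FPKM steps by taking for each gene the smallest length that made its values whole within 0.05. By that choice 164582 of 164583 values below 1000 reads were whole, so this share is no independent check of the recovered reads. FPKM were rescaled by median ratios over the 7660 genes at or above 1 FPKM in each of the 9 libraries. The test was limma 3.58.1 in R 4.3.3 (trend, robust) on log2(FPKM + 1), with 3 group means over all 9 libraries and 6 residual degrees of freedom. It was two-sided, with Benjamini-Hochberg adjustment over 13283 genes at 0.05. The pseudocount of 1 understates changes of low genes, and a fitted change of a gene without reads in a group is no bound. Printed FPKM and means are as deposited; log2 changes are on rescaled values. Fold differences are ratios of mean deposited FPKM. The code was tested on simulated data.

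Named were focad, the called, non-overlapping genes with the 25 largest rises and the 25 largest falls (placeholder names left out), up to 4 called members of each of 51 gene lists or else its 2 highest members, and the 10 called genes of highest level; others are marked as chosen after their values were seen. The call of the autophagy and lysosome list is not reported here. Members and lists were chosen with earlier results of these data known. Symbols came from a table pairing IDs with names (29201 of 33716 IDs). Replicates differed far beyond sampling noise (chi-square divided by its degrees of freedom was 152 to 702). Alternatives were the pseudocount, expression minimum, scaling, libraries fitted, replicate block, plain moderation, voom on recovered reads and leaving out each library.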

Additional observations from a re-analysis of the deposited data

How the results depend on the processing

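The number of genes called (228 of 13283, with 92 higher and 136 lower) fell to 143 (55 higher, 88 lower) when only the 6 libraries were fitted. It fell to 44 (19 and 25) of the 5352 genes tested with a mean of at least 5 FPKM. With voom on recovered reads it fell to 96 (34 and 62). The causes of these falls were not tested. With a pseudocount of 5 the genes called higher numbered 61. Leaving out 1 library gave from 90 to 539 calls, from 36 to 410 higher and from 54 to 129 lower, the highest total without focad null replicate 3 and the lowest without focad null replicate 1. Genes that did not overlap between the groups (2697) numbered from 3433 to 4435 when 1 library was left out, since fewer libraries overlap less. Without scaling 210 passed (48.6% higher against 40.4%), with upper quartile scaling 237, with plain moderation 223 and with a pseudocount of 0.1 258. With no expression minimum 227 of 25700 passed. A fit chosen after seeing the data, without the library labelled focad null replicate 2 and without pdia6 null replicate 1, whose own target was within the wild-type range, gave 200 calls. The log2 change of focad was negative under every setting run, from -1.45 with voom to -0.14 with a pseudocount of 5, and its adjusted p did not pass in any. Of 115 named genes, 11 had the other sign under at least 1 setting, cebpd, patl1 and rplp0 among them, and none of the 11 was called. Replicate numbers did not pair the libraries, since same-numbered deviations correlated at 0.027, -0.049 and -0.105; a fit with the replicate number as a block called 124 genes (48 higher, 76 lower). Of the 67 named genes that passed, 31 also did by voom, 37 with the 6 libraries alone and 45 with the block. Depth limits the values of genes with few reads, such as focad with 41 to 169 reads per library, and for a group without reads it gives only a bound.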
